A study of Mus musculus with 3 samples.

Results

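The genes described here encode the proteins of the cytosolic ribosome. They were found by name among the array's probes that are not controls: every gene named Rpl or Rps followed by a digit, with Rplp0, Rplp1, Rplp2 and Rpsa, leaving out the S6 kinases (Rps6k names) and names that mark a pseudogene. This gave 86 genes with 191 probes, of 27443 named genes and 55680 probes on the array. Of the 86 genes, 77 are core ribosomal proteins and 9 are paralogs or a partner protein (Rpl3l, Rpl7l1, Rpl10l, Rpl22l1, Rpl36al, Rpl39l, Rps4y2, Rps27l and Rps19bp1). The naming rule itself uses no measured value.

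The RNA came from posterior frontal sutures, the midline joints between the frontal bones of the skull, of C57BL/6 mice. There were 3 samples, each hybridised to 1 array with no replicate: Runx2+/+ (wild type) at postnatal day 5 (P5), Runx2+/+ at P7, and Runx2+/- at P7, which carry 1 functional copy of Runx2, the transcription factor that directs cells to the osteoblast fate. The study's title places the question in cranial suture closure and in the signalling genes that Runx2 controls in suture mesenchyme. The labels give neither the sex of the mice nor the number pooled for an array. The first comparison is P7 wild type minus P5 wild type (age), the second P7 Runx2+/- minus P7 wild type (genotype). Both use the single P7 wild-type array, so an error on that array enters both with opposite sign. With 1 array a group, no difference below has a test or a replicate check.

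Ribosomal proteins of the large and the small subunit assemble with ribosomal RNA in the nucleolus and are made in near-equal numbers, so their mRNAs usually vary together. Most of these mRNAs start with a run of pyrimidines, the 5' terminal oligopyrimidine (TOP) tract, through which their translation follows mTOR signalling. Osteoblasts make and secrete large amounts of collagen, and loss of single ribosomal proteins causes skeletal and blood disorders in mice and people.

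The start of each gene in RefSeq (build GRCm38.p6) was read from 10 bases before to 20 bases after the annotated first base. A tract was counted where a C was followed by at least 5 further C or T bases. Windows were held for 65 of the 86 genes, 77 windows in all, and 38 of the 77 (49.4%) held a tract, against 22.0% of the 32851 windows of all genes. The sequences show the tract in capitals, for 6 members that carry it and 4 that do not in this window. They include some of the members with the largest differences below.
Rps6 (chr4:86857348-86857377, - strand): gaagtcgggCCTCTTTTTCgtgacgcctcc
Rpl28 (chr7:4792955-4792984, + strand): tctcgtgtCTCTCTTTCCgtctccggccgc
Rplp2 (chr7:141447641-141447670, + strand): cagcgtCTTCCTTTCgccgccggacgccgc
Rpl38 (chr11:114668570-114668599, + strand): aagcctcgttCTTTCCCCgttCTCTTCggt
Rps12 (chr10:23787190-23787219, - strand): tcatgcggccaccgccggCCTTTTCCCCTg
Rpl15 (chr14:18270967-18270996, - strand): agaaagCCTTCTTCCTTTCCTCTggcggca
Rpl41 (chr10:128549149-128549178, - strand): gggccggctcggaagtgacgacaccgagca
Rps15 (chr10:80292421-80292450, + strand): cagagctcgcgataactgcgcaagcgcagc
Rpsa (chr9:120127756-120127785, + strand): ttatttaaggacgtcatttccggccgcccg
Rps7 (chr12:28635934-28635963, - strand): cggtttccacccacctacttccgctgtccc

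In windows of 250 bases before to 50 after the start, 35.1% of the members' windows held the Ets core CCGGAAG on either strand, against 8.86% of all windows. The Runx core TGTGGT, on either strand, was in 7.79% of the members' windows and 16.8% of all; TATAAA was in 9.09% and 13.6%, and CACGTG in 10.4% and 7.15%. These are letter matches only. Members with a tract in the start window (36 genes with a measured difference) had median differences of -0.25 for age and -0.16 for genotype on the log2 scale defined next, and the 26 without one had -0.33 and -0.13.

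Levels are given as log2 of the array's processed intensity over the 75th percentile of all probes on that array, and a gene is represented by its brightest probe. The 75th percentile itself lay at an intensity of 52.1 for P5 wild type, 22.8 for P7 wild type and 124.3 for Runx2+/-, and in that order 40.1%, 29.2% and 47.3% of probes were well above background. The arrays thus differed in brightness, and the P7 wild-type array detected the fewest probes. The authors' own values were set beside this scale; sorted, their 3 columns agree within 0.000533 on the log2 scale, so each array holds the same set of values. Repeat spots of the same probe gave an error of 0.20 for an age difference and 0.18 for a genotype difference (SD, log2), which covers the spots of 1 array and not animals.

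Marker genes of the tissue were read first. Median levels of 8 osteoblast markers were 5.74 (P5), 5.56 (P7) and 4.02 (Runx2+/-), those of 7 neutrophil markers 4.94, 1.98 and 4.14, and those of 4 neural markers 1.95, -0.06 and -1.0. Gene by gene, the osteoblast list had a median difference of 0.64 for age, with 7 of 8 genes higher at P7, and of -2.01 for genotype, with 7 of 8 at least 2-fold lower; those of the neutrophil list had a median of -3.57 for age and 2.19 for genotype. Markers of other cell types moved with both comparisons, and their part in the results was not tested. In these bulk samples fewer cells of a type and less RNA per cell cannot be told apart. Runx2 itself read 2.38, 1.46 and 1.08, and where its probe lies relative to the disrupted part is not given. Xist, which is expressed from the inactive X in females, read 2.45 and 1.94 in wild type and -3.10 in Runx2+/-, so sex-linked transcripts differed too. The Y-linked Ddx3y and Eif2s3y were well above background at P5 (-0.88 and -0.35) and in Runx2+/- (1.79 and 2.37). Neither was on the P7 wild-type array, where the lowest level detected was -0.69. Uty was above background in Runx2+/- alone, and Kdm5d on no array.

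Ribosomal protein mRNAs were detected almost without exception. Of 86 genes, 83 were well above background on all 3 arrays, against 40.1% of all named genes. The 83 had median levels of 8.45 at P5, 8.28 at P7 and 8.08 in Runx2+/-, and the median member stood at the 99.2, 99.2 and 99.4 percentile of gene signals. The brightest probes belonged to Rpl41, Rps14 and Rpl37a. Rpl41, a peptide of the large subunit, read 10.59 at P5, 10.86 at P7 and 9.75 in Runx2+/-. Rps14 read 10.25, 10.07 and 9.75, and Rpl37a read 10.12, 9.86 and 9.53. Both were highest at P5 on this scale and in Runx2+/- on the authors' values. Probe signal also depends on the probe, so the order of the members is not one of transcript amounts.

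**Figure D1:**
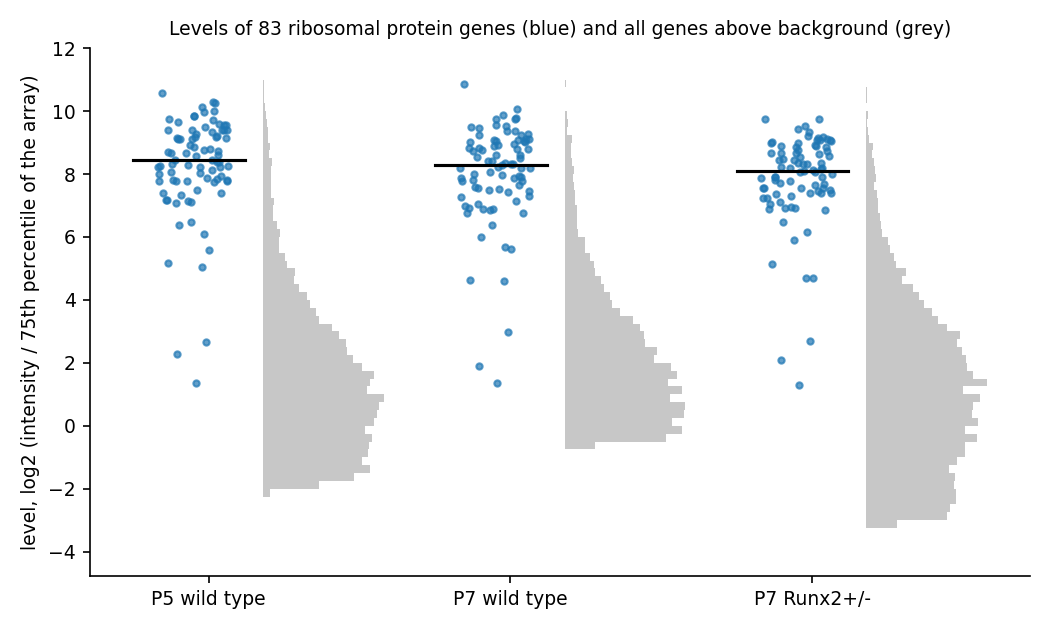
Levels of the 83 ribosomal protein genes above background on all arrays (blue points, horizontal line at their median) and of all genes above background on that array (grey histogram, turned sideways), as log2 of intensity over the array's 75th percentile. The medians of 8.45, 8.28 and 8.08 lie far above most other genes on each array, and a few paralogs sit lower.

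Between P5 and P7 in wild type, the family moved down by a small, even step. The median difference was -0.28 (SD between members 0.21, n = 83 genes), against 0.08 for all 11020 genes measured on both arrays and -0.10 for the 1295 other genes in the brightest eighth of the array. Of the 83 members, 74 were below 0, where 43.6% of all genes were. On the authors' values the step was smaller, -0.06, with 58 of 83 below 0. No member differed by 2-fold in either direction, where 4.17% of all genes were at least 2-fold higher and 2.15% at least 2-fold lower.

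Between P7 wild type and P7 Runx2+/-, the direction of the family depended on the scale. With the 75th percentile as the unit the median difference was -0.17 (SD between members 0.33, n = 83), with 57 of 83 below 0, against 0.16 for all 11055 genes and 39.9% of them below 0. On the authors' values the median was 0.32, against 0.13 for all genes, with 10 of 83 below 0. Quantile normalization of the intensities gave 0.38 and cyclic loess 0.16. The median level of the 1295 other genes of the brightest eighth was 6.04 in wild type and 5.92 in Runx2+/- at P7, and with these levels set equal the family difference was -0.04. No direction is therefore given for the family in Runx2+/-, and the members are described below by their distance from the family median, which removes any step that all of them share.

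On the 75th-percentile scale, 2 members were at least 2-fold lower in Runx2+/- and none at least 2-fold higher, where 9.91% and 4.72% of all genes were. They were Rpl41, at 2.15-fold lower (-1.11), and Rpl28, at 2.04-fold lower (-1.03). On the authors' values Rpl41 differed by 0.14 and Rpl28 by -0.46, so neither was 2-fold lower there and Rpl41 was on the other side of 0.

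**Figure D2:**
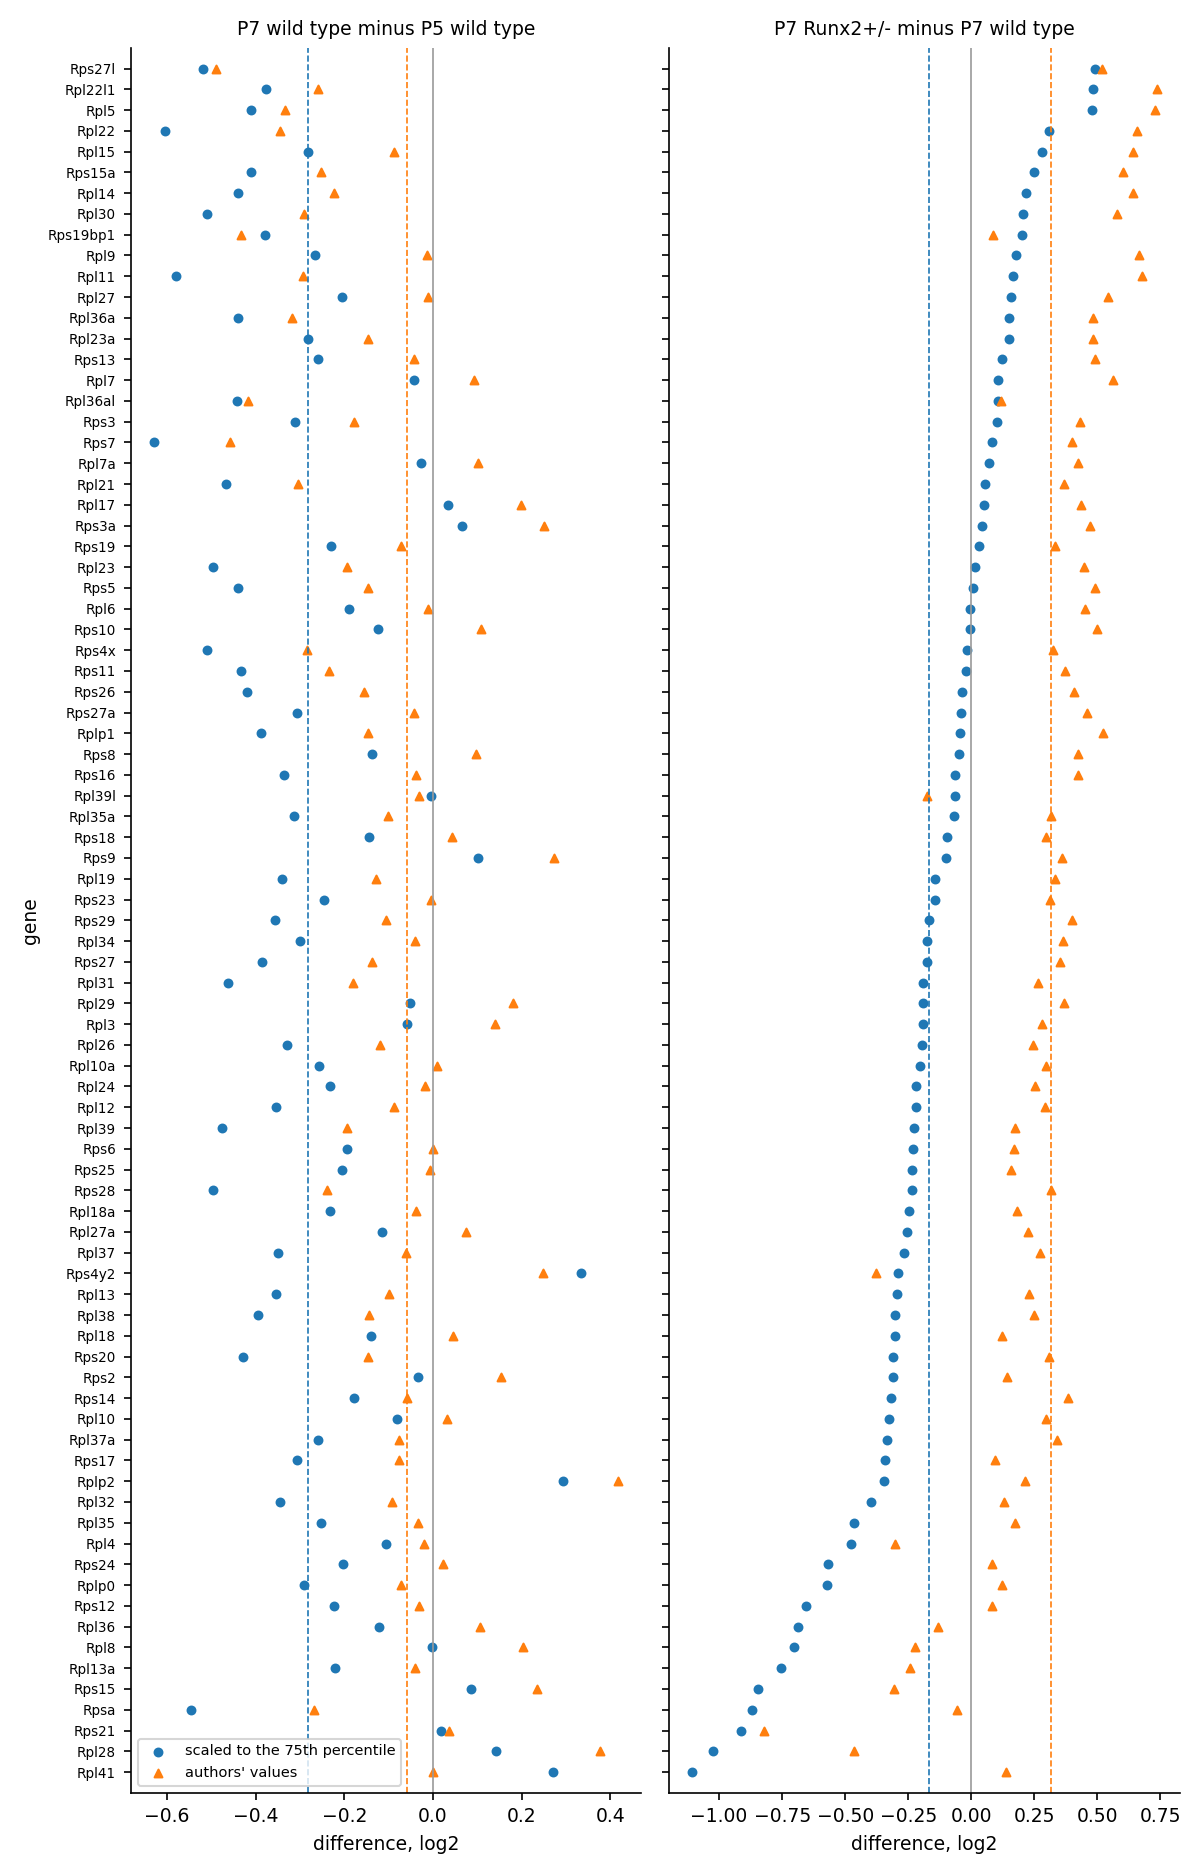
Differences of the 83 ribosomal protein genes (log2) for age (left) and genotype (right), on the 75th-percentile scale (blue circles) and on the authors' values (orange triangles), ordered by the genotype difference on the first scale; dashed lines are the family medians. Most blue genotype points lie left of 0 with a median of -0.17 and most orange ones right of 0 with a median of 0.32, while Rps21, Rpl28 and Rps15 lie below the family median on both.

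Distances from the family median were small. For age 1 of 83 members lay at least 1.5-fold from it, where 23.1% of all genes lay that far from the median of all genes. For genotype 9 of 83 did, against 33.7% of all genes. On the authors' values the counts were 0 and 5, the 5 being Rpl28, Rps21, Rps15, Rpl4 and Rps4y2, all below the median. The share of all genes that far from their median was not counted on the authors' values. Relative to the median member of each array, 1 member, Rpsa, ranged over more than 2-fold across the 3 arrays, where 24.5% of all genes did relative to the median gene.

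The large and the small subunit gave like medians. The 43 large-subunit proteins outside the stalk had a median of -0.27 for age, with 40 below 0, and the 31 small-subunit proteins had -0.26, with 27 below 0. For genotype on the same scale they had -0.19 (28 below 0) and -0.10 (24 below 0), a gap smaller than the SD within either group (0.34 and 0.30).

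The stalk of the large subunit, formed by Rplp0 with the acidic proteins Rplp1 and Rplp2 and seated beside Rpl12, recruits the elongation factors. Its members did not keep step for age. On the 75th-percentile scale Rplp2 read 8.71 at P5, 9.0 at P7 and 8.66 in Runx2+/-, highest at P7 wild type. Rplp1 read 9.35, 8.96 and 8.91, and Rplp0 read 9.84, 9.55 and 8.98, both highest at P5. Rplp2 was thus at 0.29 for age where Rplp0, Rplp1 and Rpl12 were at -0.29, -0.39 and -0.36. Its distance of 0.58 above the family median lay between 0.48 and 0.62 in the 16 settings of the analysis tried. Several of these, such as another constant scale for an array, cannot change a distance from the family median. For a gene with 1 probe, the choice of probe acts only through that median. The 16 settings are thus not 16 separate checks, here or for the ranges below. For genotype the 4 read -0.57 (Rplp0), -0.05 (Rplp1), -0.35 (Rplp2) and -0.22 (Rpl12) on the 75th-percentile scale, and 0.12, 0.52, 0.21 and 0.29 on the authors' values. On the authors' values Rplp0, Rplp1 and Rplp2 were each highest in Runx2+/-. Rplp2 rests on 1 probe.

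Other members that stood above the family for age were Rps4y2 (0.33), Rpl41 (0.27), Rpl28 (0.14) and Rps9 (0.10), where the family stood at -0.28. For Rpl41 the distance above the family fell from 0.55 to 0.06 on the authors' values, where its age difference was 0. Since each array holds the same set of authors' values, that 0 is an equal rank on both wild-type arrays. The second probe of Rpl28 read -0.15. Rps9, a small-subunit protein bound early in assembly, read 8.45, 8.55 and 8.45 on the 3 arrays with percentile scaling, an almost level course there. On the authors' values Rps9 was not level, at 15.24, 15.51 and 15.87, a rise at each step. Rps4y2, which RefSeq now lists as the transcribed pseudogene Rps4l, read 2.66, 2.99 and 2.70 and was the 1 member at least 1.5-fold from the family median for age. It is among the dimmest probes of the family and was 0.31 from the median on the authors' values.

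The members farthest below the family for age were Rps7 (-0.63), Rpl22 (-0.60), Rpl11 (-0.58), Rpsa (-0.55) and Rps27l (-0.52). Rps7, a small-subunit protein that can bind Mdm2, read 7.40 at P5, 6.77 at P7 and 6.85 in Runx2+/- with percentile scaling. There P5 was highest and both P7 arrays were close to each other. Rps7 read 14.34, 13.88 and 14.28 on the authors' values, where P5 lay close to Runx2+/- and P7 wild type was lowest. Rpl11 read 9.41, 8.83 and 8.99 with percentile scaling, in the same order as Rps7. It read 16.025, 15.733 and 16.412 on the authors' values, highest in Runx2+/-. All 3 probes of Rpl11 were lower at P7, at -0.58, -0.39 and -0.42. The distance below the family median stayed below 0 in all 16 settings for Rps7 (-0.40 to -0.30) and Rpl11 (-0.40 to -0.19), whereas for Rpl22 it ran from -0.43 to 0.27. The brightest probe of Rpl22 shares at least 30 bases with a probe of another name, and its other probe read 0.01 for age.

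Rpl5 and Rpl11 carry the 5S ribosomal RNA and, with Rpl23, bind and inhibit Mdm2 when ribosome assembly is disturbed, which raises p53. For age these 3 had a median of -0.50, all below the family median. For genotype all 3 lay above it on their brightest probes: Rpl5 at 0.48, Rpl11 at 0.16 and Rpl23 at 0.01, where the family stood at -0.17. On the authors' values they were at 0.73, 0.68 and 0.44, where the family stood at 0.32. On the 75th-percentile scale the other probes read 0.02 and -0.19 for Rpl11, and -0.26 and 0.63 for Rpl23. Both genes thus had a probe below the family's -0.17. Rpl5 read 6.09 at P5, 5.68 at P7 and 6.16 in Runx2+/-, so the P7 wild-type array was lowest. Its distance above the family median for genotype was 0.65 on the 75th-percentile scale and between 0.31 and 0.65 over the 16 settings. Since the age and genotype comparisons share the P7 wild-type array, a low reading there gives both signs.

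Together with Rpl5, the members at least 1.5-fold above the family for genotype were Rps27l and Rpl22l1, both paralogs. Rps27l, the p53-inducible copy of Rps27, read 5.17, 4.65 and 5.14, lowest on the P7 wild-type array. Rps27 itself read 9.18, 8.80 and 8.62, and its brightest probe is placed by the array's annotation on chromosome 9 while RefSeq has the gene on chromosome 3. Rpl22l1, which can replace its partner Rpl22 in the ribosome, read 6.38, 6.01 and 6.49, and Rpl22 read 7.76, 7.15 and 7.46. The differences for genotype were 0.49 for Rps27l, 0.48 for Rpl22l1 and 0.31 for Rpl22, where Rps27 stood at -0.18. On the authors' values the distance above the family was 0.20 for Rps27l and 0.42 for Rpl22l1. Rpl15, next in order with Rpl22 among those 5 farthest above, had 0.28 on its brightest probe and 1.07 on a second probe.

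The other paralogs were low within the family or not detected. Rpl36al read 5.05, 4.61 and 4.71, and its partner Rpl36a read 7.19, 6.75 and 6.90, with age differences of -0.44 for both. Rpl39l, best known from testis, read 1.36, 1.36 and 1.30, where Rpl39 read 8.27, 7.79 and 7.56. Rpl10l, the testis copy of Rpl10, and Rpl3l, the striated-muscle copy of Rpl3, were well above background on none of the 3 arrays. All 4 male germ cell markers were likewise undetected, and 1 of 5 muscle markers was well above background on all 3 arrays. Rpl7l1 was above background on the Runx2+/- array alone, at -1.32, which is under the lowest level detected on the P7 wild-type array (-0.69), so it has no order between them. Rps19bp1, a nucleolar partner of Rps19 and not a ribosomal protein, read 2.27, 1.90 and 2.10.

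The members farthest below the family for genotype were Rpl41, Rpl28, Rps21, Rpsa and Rps15, followed by Rpl13a. Rpl28, a large-subunit protein, read 9.10, 9.24 and 8.22. Rps21, a small-subunit protein, read 5.59, 5.61 and 4.69. Rps15, which takes part in export of the small subunit, read 8.66, 8.75 and 7.90. On the 75th-percentile scale the 2 wild-type arrays lay within 0.14 of each other in these 3 genes, and the Runx2+/- array stood lower. On the authors' values Rps21 kept this course, at 12.70, 12.73 and 11.91. Rpl28 read 15.75, 16.12 and 15.66 there, and Rps15 15.42, 15.65 and 15.35. In both, P7 wild type was highest and P5 lay close to Runx2+/-. The distances of Rpl28, Rps21 and Rps15 below the family median for genotype were -0.86, -0.75 and -0.68. On the authors' values they were -0.78, -1.14 and -0.62. Over the 16 settings Rpl28 ran from -0.99 to -0.44, Rps21 from -1.27 to -0.74 and Rps15 from -0.75 to -0.20, all below 0. No setting read the second probe of Rpl28 or Rps15 alone, since the probe nearest the 3' end was again the brightest. Those second probes read -0.05 and -0.15 for genotype, above the family's -0.17.

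Rpl41 and Rpsa moved more with the setting. Rpl41, the brightest member, had a distance of -0.94 on the 75th-percentile scale and -0.18 on the authors' values. Rpsa, the laminin receptor precursor that also sits on the small subunit and whose loss in people leaves them without a spleen, read 10.30 at P5, 9.75 at P7 and 8.89 in Runx2+/-, a course down over all 3 arrays. Its distance was -0.70, and -0.37 on the authors' values. In every setting that gave them a value, 20 members stayed below the family median for genotype and 20 at or above it. For age 25 and 23 did. Several settings could not change these distances, as said above for Rplp2.

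Several of these genes had probes that disagreed. The 60-base probes follow, 5' to 3', with G and C in capitals and with positions in build mm9 from the array's annotation. They are shown for 5 of the members described above by their distance from the family, and the pair for Rpsa because both read the same gene in opposite directions for genotype.
Rpsa brightest probe (chr9:120040269-120040849, + strand): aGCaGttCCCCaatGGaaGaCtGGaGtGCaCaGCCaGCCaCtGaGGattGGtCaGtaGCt
Rpsa probe near the 5' end (chr9:120037601-120037660, + strand): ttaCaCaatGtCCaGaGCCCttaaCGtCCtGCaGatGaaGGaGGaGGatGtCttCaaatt
Rps15 (chr10:79756716-79756775, + strand): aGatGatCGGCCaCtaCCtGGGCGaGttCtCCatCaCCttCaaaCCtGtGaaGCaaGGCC
Rpl13a (chr7:52381388-52381529, - strand): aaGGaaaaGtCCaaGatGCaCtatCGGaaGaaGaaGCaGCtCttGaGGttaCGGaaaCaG
Rpl5 (chr5:108333834-108333892, + strand): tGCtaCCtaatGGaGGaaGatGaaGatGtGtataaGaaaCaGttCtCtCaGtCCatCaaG
Rps7 (chr12:29319087-29319146, - strand): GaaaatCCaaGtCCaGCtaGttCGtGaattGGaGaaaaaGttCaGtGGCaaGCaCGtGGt

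The brightest Rpsa probe, whose coordinates span 581 bases of the genome, holds 55.0% G and C and read -0.87 for genotype. A second bright probe read -1.20. The probe near the 5' end of the transcript holds 45% G and C and read 0.47, at levels of 6.36, 5.51 and 5.98. All 3 probes read lower at P7 than at P5, at -0.55, -0.38 and -0.85, so the probes disagree for genotype and not for age.

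For Rpl28 the probes read -1.03 and -0.05 for genotype, and for Rps15 they read -0.85 and -0.15. Rpl13a, a large-subunit protein also known for silencing translation of inflammatory mRNAs, read -0.76 on its brightest probe and 0.14 and 0.26 on the others. Rpl8 read -0.70 and -0.01. In each of these genes the brightest probe was the lowest for genotype. Rps24 held together better, with all 4 probes below 0, at -0.57, -0.61, -0.84 and -0.24. Rpl41, Rps21, Rpl5, Rps27l, Rpl22l1 and Rps7 have 1 probe each above background, so no such check exists for them.

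Over the 55 members with several probes above background (150 probes), the SD between probes of a gene was 0.22 for age and 0.30 for genotype. The SD between members was 0.21 and 0.33. Probes of opposite sign were found in 10 of the 55 genes for age and in 22 for genotype. In all, 11 probes of 11 genes were at least 4 log2 units dimmer than the brightest probe of their gene. Of these 11, 9 read above 0 for genotype, with a median of 0.34. Of all 11055 genes, 6640 were above 0 for genotype, with a median of 0.16. With all genes split by level into 8 groups, groups 2 to 7, at median levels of 0.39 to 3.96, had genotype medians between 0.20 and 0.31.

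**Figure D3:**
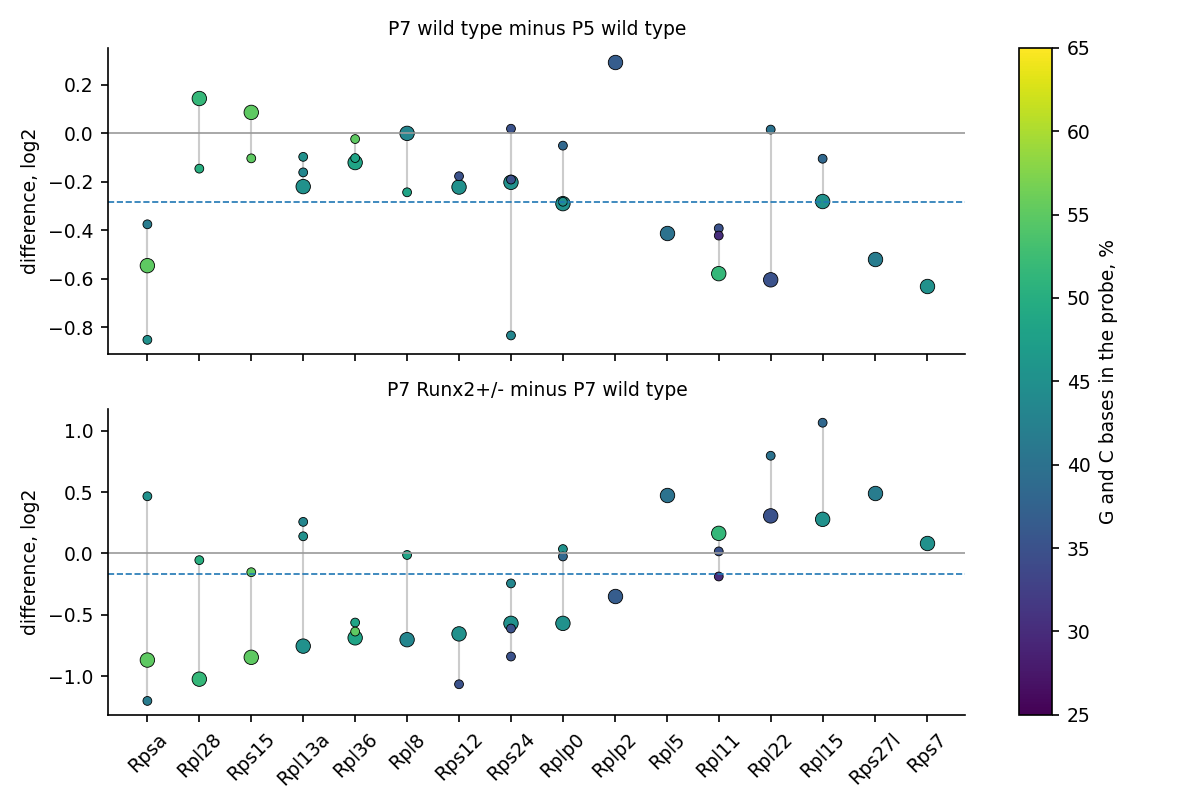
Differences (log2, 75th-percentile scale) of every probe above background on all arrays for 16 members, for age (top) and genotype (bottom); large points are the brightest probe, colour is the share of G and C bases, and the dashed line is the family median of brightest probes. For genotype the Rpsa probes run from -1.20 to 0.47, while the 3 for Rpl11 run from -0.19 to 0.16.

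Brightness and base composition moved with the genotype difference. Across the 83 members the Spearman correlation of mean level with the difference was -0.50 for genotype and 0.07 for age; the members share the same 3 arrays, and this is a description. With the 77 core proteins split by level into 4 groups from dimmest to brightest, the genotype medians were 0.06, -0.19, -0.22 and -0.31 on the 75th-percentile scale, where the age medians were -0.31, -0.22, -0.30 and -0.26. The share of G and C in the probe had a correlation of -0.26 with the genotype difference over the members and of -0.33 over all 11055 genes, and of 0.01 and -0.02 for age. In all genes the genotype median was 0.34 for probes of at most 40% G and C, 0.10 from there to 50%, and -0.27 above 50%; the 22, 44 and 17 members in these groups had 0.00, -0.18 and -0.19.

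After the median of all genes with a like share of G and C was subtracted, the family stood at -0.31 for age and -0.27 for genotype, with 79 and 62 of 83 below 0. Rps21, whose probe has 30% G and C, then stood farther below 0, at -1.31, and Rpl5 at 0.23. Members' probes had a median of 45% G and C, and all genes' 43.3%. The polyadenylation letters AATAAA were in the brightest probe of 23 of the 83 members (27.7%), against 16.8% of all genes above background; the genotype medians with and without them were -0.22 and -0.12.

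**Figure D4:**
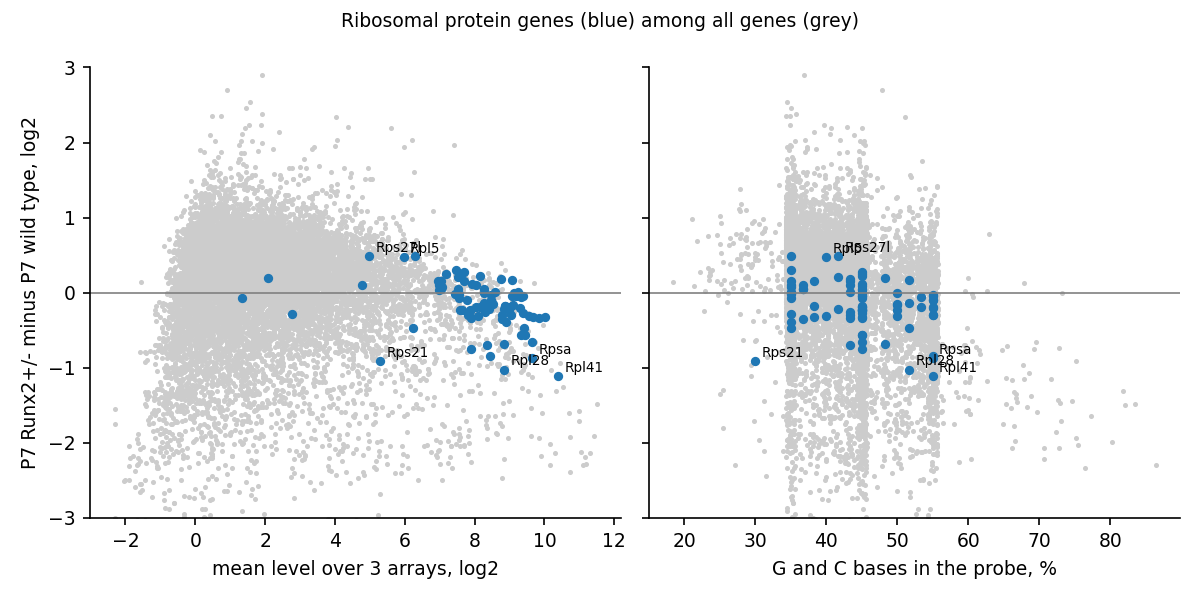
Genotype difference (log2, 75th-percentile scale) against mean level over the 3 arrays (left) and against the share of G and C bases in the probe (right; grey points shifted sideways at random), for 83 ribosomal protein genes (blue) and all genes (grey); genes beyond 3 in either direction are not drawn. The bright members slope downward, with Spearman -0.50 against level and -0.26 against G and C, a slope that age did not show.

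Members known from skeletal or coat-colour mutants were read as a set. These 11 genes (Rpl38, Rpl24, Rpl29, Rpl13, Rpl10, Rpl27a, Rps7, Rps19, Rps20, Rpsa and Rps6) were all below 0 for age, with a median of -0.23, and 7 of 11 were on the authors' values. For genotype their median was -0.25, with 9 of 11 below 0, and 0.25 on the authors' values, with 1 of 11 below 0. Of the 83 family members, 74 were below 0 for age and 57 for genotype, and 58 and 10 on the authors' values. Rpl38, whose mutation in the Tail short mouse alters the axial skeleton, read 9.41 at P5, 9.02 at P7 and 8.72 in Runx2+/-, and Rps6, the substrate of the S6 kinases, read 7.83, 7.64 and 7.41. Both kept within 0.13 of the family median in both comparisons on this scale. Apart from Rpsa, none of the 11 was 1.5-fold from the family in either comparison.

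Genes mutated in Diamond-Blackfan anaemia, a failure of red cell production with skeletal defects, held 19 members. All 19 were below 0 for age, with a median of -0.33, where 74 of the 83 family members were. For genotype 12 of 19 were below 0, with a median of -0.07, where 57 of 83 family members were. On the authors' values none of 19 was below 0 for genotype, with a median of 0.35, where 10 of 83 family members were. Rpl5 was the 1 gene of these 19 that was at least 1.5-fold from the family median. The 4 erythroid markers that were detected had medians of -0.45 and -0.52.

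Members on the X chromosome were Rpl10, Rpl36a, Rpl39 and Rps4x. Their genotype differences were -0.33, 0.15, -0.23 and -0.02, inside the range of the other members, where Xist differed by -5.04. The Rps4x value is from a probe that the array's annotation places on chromosome 3. The Rps4x probe placed on X read 0.19.

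Genes that work with ribosomal proteins were set beside the family, each with its own median on the 75th-percentile scale and then on the authors' values. The proteins of the mitochondrial ribosome, nuclear-encoded and assembled in mitochondria, had 69 of 76 genes measured, with -0.10 and -0.13 for age and 0.33 and 0.25 for genotype. Of these, 11 of 69 were below 0 for genotype on the first scale, where 57 of 83 cytosolic members were; on the authors' values the family (0.32) and the mitochondrial set (0.25) lay together. Mrpl3 (1.01) and Mrps33 (1.16) were the mitochondrial members at least 2-fold higher in Runx2+/-.

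Ribosome assembly factors (31 of 40 genes) had -0.28 and -0.33 for age, with 24 of 31 below 0, and 0.31 and 0.26 for genotype. Nop16, a nucleolar protein, was at 1.26 for genotype and Utp14a, of the small-subunit processome, at -1.36. Other mRNAs with a TOP tract (21 genes, such as elongation factors) had -0.10 and -0.03 for age and 0.04 and 0.33 for genotype. Translation factors and their regulators, nearly all of initiation (24 of 27), had -0.14 and -0.10 for age and 0.22 and 0.29 for genotype, with Eif3i at 1.18 for genotype and Eif3j at -1.03 for age. The S6 kinases and their upstream regulators (5 of 10) had 0.07 and 0.04 for age and 0.65 and 0.56 for genotype. Genes often used as references (12 of 13) had -0.29 and -0.22 for age and 0.31 and 0.41 for genotype, with Ywhaz at -1.10 for age.

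The naming of some members is uncertain. The 11 probes of 5 genes (Rpl13, Rpl36, Rps27, Rps29 and Rps4x) are placed by the array's annotation on another chromosome than the RefSeq gene. They include the brightest probe for Rps27, Rps29 and Rps4x. In all, 49 probes of 34 members share at least 30 bases with a probe of another name, and 28 of these are a gene's brightest. Without them 74 members remained, with medians of -0.25 for age and -0.11 for genotype.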

How the data were processed

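Per the labels' protocols, ISOGEN total RNA was amplified to Cy3-labelled cRNA, and each group has 1 Agilent array. The authors deposited scanner output of Agilent Feature Extraction, version 9.5.1.1 in the submitters' processing notes and 10.7.1.1 per the file headers; its processed signal is a linear intensity with the background already subtracted. The authors' table of values per probe is a second linear intensity; how it was made is not given in the sources used. Its values were set against the scanner values: they keep the rank order of each array (rank correlations 1.00) and have the same distribution on all 3 arrays, with a median of 12.59 on the log2 scale.

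Control spots and outlier-flagged spots were left out, log2 intensities were centred on each array's 75th percentile, spots of a probe were averaged, and the probe brightest on average stood for its gene. A difference was taken where both arrays were well above background; no spot was saturated. The number of arrays limits the precision. A gene was called past 2-fold, or past 1.5-fold from the family median; with 1 array a group there is no p-value. The genes named were the 5 farthest above and below the family median in each comparison, fixed panels, and the 3 brightest and dimmest members. The members and lists were chosen with earlier results of these data known. The calculation was tested on simulated data. Alternatives were quantile, cyclic loess and normexp (offset 50, limma 3.58.1, R 4.3.3), other scalings, filters and probe choices, core proteins alone, and the authors' values; 4 of them (probe base composition, bright genes as the scale, probes on another chromosome, probes with shared sequence) were chosen after seeing the data. Work used Python 3.11.15 with pandas 2.3.3. Promoter windows and gene names came from RefSeq (GRCm38.p6); Rps3a is Rps3a1 there.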

Additional observations from a re-analysis of the deposited data

How the results depend on the processing

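Settings are against the 75th-percentile scale. The family median difference for age stayed below 0 in all 16 settings, at -0.059 on the authors' values, -0.078 after quantile normalization and -0.99 after normexp; relative to all genes it was -0.12, -0.14 and -0.73, and -0.74 with no filter on dim probes. For genotype it was 0.32 on the authors' values, 0.38 after quantile normalization, 0.16 after cyclic loess and 1.12 after normexp, against -0.17; relative to all genes these were 0.18, 0.25, 0.16 and 0.38, and 0.41 with no filter, against -0.32. Normexp adds 50 to each intensity, more than the 75th percentile of the P7 wild-type array (22.8), and it moved the genotype median of all genes to 0.73 from 0.16; cyclic loess moved it to 0.00.

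Members at least 2-fold lower for genotype numbered 2; the count was 0 under the authors' values, quantile, cyclic loess, normexp, scaling to bright genes or a 3-fold threshold, 1 with probe GC centred or the mean over probes, 3 scaled to the median probe or with the probe nearest the 3' end, 4 with no filter and 9 at 1.5-fold. For age it was 0, but 38 after normexp and 2 at 1.5-fold. Members at least 2-fold higher for genotype numbered 54 after normexp and 1 with no filter, the 3' probe or without shared-sequence probes; for age 1 with no filter. Members 1.5-fold from the family median for genotype numbered 5 on the authors' values and 0 at 2-fold, against 9. For age the 1 such member, Rps4y2, became 0 with GC centred, a 2-fold threshold, the authors' values, core proteins alone or quantile, 2 with cyclic loess or no filter and 3 after normexp. The share of all genes past these folds was counted in the main setting alone. It can shift with the setting: the genotype median of all genes was 0.73 after normexp and -0.58 with no filter. The counts under other settings therefore show no excess or lack of members.

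Of 16 named genes, 12 had a genotype difference that changed sign in at least 1 setting, and 4 (Rpl15, Rpl22l1, Rpl5 and Rps27l) did not; for age 8 changed sign or reached 0. After normexp 9 turned for genotype, all to above 0: Rpl28 to 0.13, Rpl41 to 0.15, Rps21 to 0.28, Rpsa to 0.36, Rps15 to 0.39, Rpl13a to 0.48, Rps4y2 to 0.55, Rplp2 to 0.91 and Rps9 to 1.15. Rpl41 was also above 0 on the authors' values (0.14) and after quantile normalization (0.26). The distance of Rpl13a from the family turned to 0.36 with its most 3' probe. The cause of these turns was not tested. No paired analysis was possible because each group has 1 array. With 1 array a group, animals, cell composition, sex and array brightness cannot be told apart from age or genotype.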

Other observations

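Probes named for ribosomal protein pseudogenes, which the family leaves out, gave signals in the members' range. The probe named Rps19-ps4 read 9.27 at P5, 9.42 at P7 and 8.65 in Runx2+/-, where Rps19 itself read 7.12, 6.89 and 6.92. The probe named Rpl18-ps1 read 8.99, 9.03 and 8.08, and the one named Rps19-ps6 read 8.22, 8.07 and 7.13; both wild-type arrays were close and the Runx2+/- array lower on the 75th-percentile scale. The probes named Rpl17-ps1, Rpl34-ps1 and Rps19-ps13 read between 5.26 and 6.19 on the 3 arrays.

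Probes nearer the 3' end of a gene read higher than those nearer the 5' end by a median of 0.15 for age over 53 members, and by 0.14 over 2000 genes with such pairs. For genotype the same quantity was -0.13 over the members and 0.12 over all genes, with 19 of 53 members above 0.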
